A study of Mus musculus with 2 samples.

Results

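The forkhead genes encode transcription factors that share a winged-helix DNA-binding domain and are named by a letter for the subfamily and a number for the member. They were examined here in polyadenylated RNA of E14 cells, an established embryonic stem cell line of the mouse from a blastocyst of the 129/Ola background, wild type in genotype. The study sequenced 2 libraries of these cells, 1 with the age label P33 and 1 with the age label P42. Labels of this form usually give a passage number in cell culture, but the labels used here do not say so, and each library goes by its label below. The sources used here do not give the culture medium, the use of feeder cells or whether each library had its own culture. All protein-coding genes of the count tables whose symbol is Fox, a letter from a to s, a number and at most 1 further letter were taken, which gave 44 genes out of 43629 gene identifiers. The rule used no measured value.

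Forkhead factors bind DNA through a recognition helix that lies in the major groove, and most of them read a short core motif with a run of adenines. Members differ in how they are controlled. FoxO factors are held in the cytoplasm when insulin and PI3K signalling activates Akt, Foxh1 carries Smad complexes of the Nodal pathway to DNA, and Foxm1 drives genes of mitosis. In the early embryo Foxd3 is needed to keep the epiblast, while Foxa, Foxc and Foxf factors act later, in the endoderm and the mesoderm.

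The bases that encode the recognition helix, a conserved part of the family, are shown to compare members at the same place. In the GENCODE M21 transcripts (GRCm38) a helix was found for 43 of 44 members by a search of the translated transcripts. The capitals mark the 24 bases of its conserved core, with 9 bases on either side.
Foxd3: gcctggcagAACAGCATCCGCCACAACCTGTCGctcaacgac
Foxd4: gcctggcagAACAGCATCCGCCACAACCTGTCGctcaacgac
Foxl1: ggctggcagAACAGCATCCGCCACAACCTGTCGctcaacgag
Foxo1: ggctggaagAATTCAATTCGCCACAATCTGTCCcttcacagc
Foxo3: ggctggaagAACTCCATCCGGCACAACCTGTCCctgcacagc
Foxo4: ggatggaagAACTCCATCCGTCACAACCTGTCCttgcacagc
Foxk1: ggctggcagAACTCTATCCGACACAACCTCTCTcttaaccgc
Foxk2: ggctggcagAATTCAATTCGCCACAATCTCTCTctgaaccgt
Foxp4: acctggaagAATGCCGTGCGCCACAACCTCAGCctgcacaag
Foxn2: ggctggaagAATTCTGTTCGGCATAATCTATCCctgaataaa
Foxm1: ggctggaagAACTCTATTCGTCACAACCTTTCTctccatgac
Foxh1: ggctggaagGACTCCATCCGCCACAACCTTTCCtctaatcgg
Foxd3, Foxd4 and Foxl1 had the same 24 core bases, while Foxn2 shared 13 of them with Foxd3, Foxp4 15 and Foxo3 20. Searched over the whole of the longest transcripts, the longest identical run between 2 members was 68 bases, shared by Foxd3 and Foxd4. The next was 53 bases, shared by Foxc1 and Foxc2. The helix cores of Foxc1 and Foxc2 differ, so this run does not hold the whole core. Where the other runs lie was not examined. For the 19 members that were expressed in both libraries the longest run with any other member had a median of 21 bases. Of the Foxd3 and Foxd4 pair only Foxd3 had counts, 548 in P33 and 375 in P42, against 0 and 0 for Foxd4.

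Sequencing depth was 40139219 counts in P33 and 39657578 in P42. Levels are given as CPM, counts per 1000000 after scaling by the trimmed mean of M values (TMM), or as RPKM, the same value per kilobase of merged exon, and different genes are compared by RPKM only. Of the 10 stem cell markers all were detected, meaning at 1 CPM or more in both libraries, with Pou5f1 at 33840 and 18993 counts and Nanog at 24576 and 25909. Of the fibroblast markers, which would come with feeder cells, 4 of 10 were detected. The 10 summed to 43.7 CPM in P33 and 34.9 in P42. Highest were Thy1, at 29.8 and 24.7 CPM, and Pdgfrb, at 6.50 and 5.56, while Postn, Dcn and Lum had 0 counts in both. Counting intervals below are exact at 95%, cover counting error only and treat reads as independent molecules, which PCR copies are not. With 1 library for each label, a difference between P33 and P42 has no replicate check, and no p-values were computed.

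These stem cells expressed part of the family. Of the 44 forkhead genes 19 were detected, which is 43.2%, while 54.2% of all 21474 protein-coding genes were. A further 2 members reached 1 CPM in the P33 library alone (Foxi3 and Foxj1) and 1 in the P42 library alone (Foxq1), and 22 were below 1 CPM in both. Each library devoted a similar share to the family as a whole. The summed level was 704 CPM in P33 (696 to 712, exact Poisson interval) and 713 CPM in P42 (705 to 722), or 709 ± 6.35 CPM (SD, n = 2). Of all counts this was 0.0740% (P33) and 0.0679% (P42).

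Per length the detected members ranged from 0.402 to 16.6 RPKM in the mean of the 2 libraries. Their median was 5.45 RPKM in P33 and 4.27 in P42, beside 6.19 and 6.13 over the 11638 detected protein-coding genes. In order of mean RPKM they ran Foxh1, Foxk2, Foxn2, Foxo4, Foxo3, Foxm1, Foxp4, Foxo1, Foxj3, Foxd3, Foxp1, Foxk1, Foxn4, Foxj2, Foxr2, Foxr1, Foxn3, Foxa3 and Foxo6. The values of neighbours in this order overlapped between the libraries for 9 of 18 neighbouring pairs, so their order was not resolved. These pairs join Foxh1, Foxk2 and Foxn2, then Foxo4 and Foxo3, then Foxp4, Foxo1, Foxj3 and Foxd3, then Foxp1 and Foxk1, and last Foxr2, Foxr1 and Foxn3. Beyond neighbours, the range of Foxh1, 9.25 to 23.9 RPKM, also covered Foxo4, Foxo3 and Foxm1 and overlapped that of Foxp4. Only 6 members lay above the protein-coding median in both libraries, namely the first 6 of the order. Dividing by the length of the longest transcript moved Foxj3 to 12.5 and 16.3 RPKM from 5.45 and 7.10, and Foxp1 to 6.43 and 7.41 from 3.36 and 3.86, since the merged exons of these genes are longer than their longest transcript. It moved Foxn2 to 21.3 and 21.7 RPKM, which put Foxn2 before Foxk2 and Foxh1 in the mean.

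**Figure D1:**
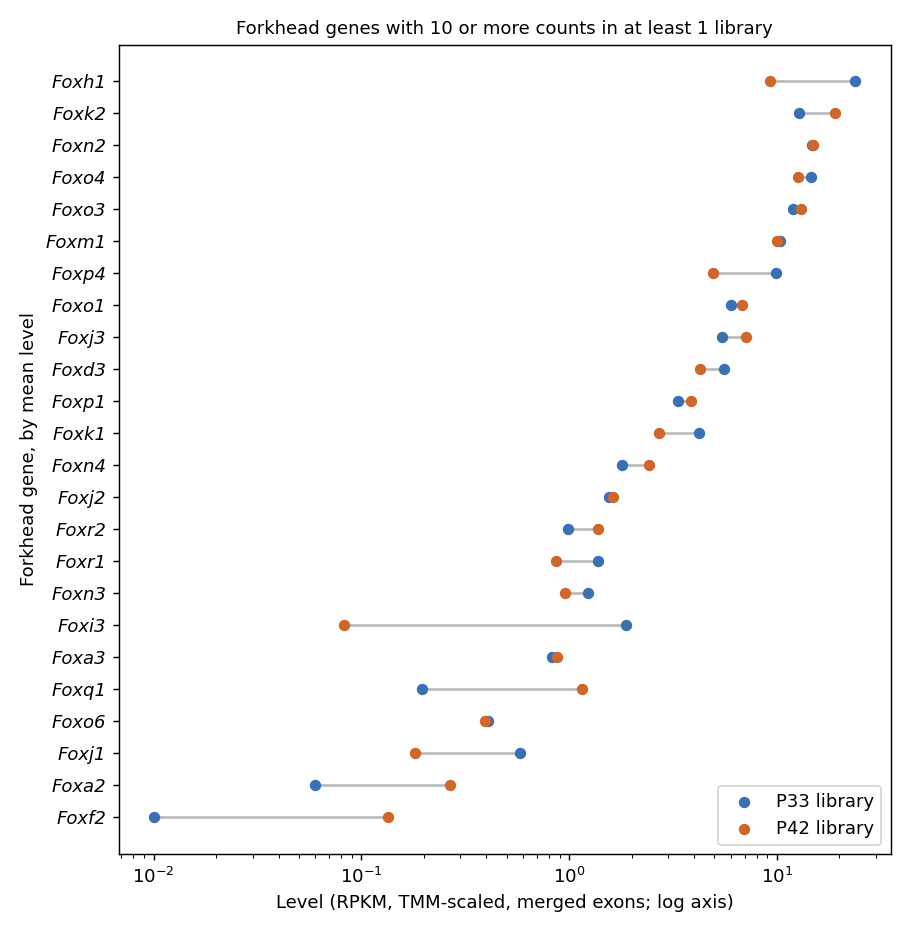
Level of the forkhead genes with 10 or more counts in at least 1 library, apart from 1 that is not shown, in RPKM on a log axis. Blue points are the P33 library, orange points the P42 library, and a grey line joins the 2 values of a gene. Most detected genes have points close together, while Foxh1 and Foxp4 were lower in P42 and Foxi3 and Foxq1 lie far apart.

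The FoxO subfamily, which couples growth factor signalling to stress resistance, cell cycle arrest and metabolism, made the largest share of the family per length. All 4 members were detected, and together they took 24.6% of the summed forkhead RPKM in P33 and 27.6% in P42. Foxo4 stood at 14.6 RPKM in P33 and 12.6 in P42, with 2151 and 1660 counts. Foxo3 stood at 11.9 and 13.1 RPKM and had more counts, 3810 and 3741, over merged exons of 7571 bases against 3485 for Foxo4. Foxo1 stood at 6.03 and 6.83 RPKM, from 2202 and 2234 counts. Foxo6, best known from the brain, was close to the limit of detection at 45 and 39 counts. None of the 4 differed 2-fold between the libraries, with log2 ratios of P42 over P33 of -0.22 for Foxo4, 0.13 for Foxo3, 0.18 for Foxo1 and -0.05 for Foxo6. The ratio of Foxo3 to Foxo1, which does not depend on library scaling, was 1.98 in P33 and 1.92 in P42.

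Foxk1 and Foxk2, repressors that work with the Sin3 corepressor and control starvation and glycolysis genes, took 12.7% of the family RPKM in P33 and 18.2% in P42. Foxk2 stood at 12.8 RPKM in P33 and 19.0 in P42. Foxk1 stood at 4.204 and 2.703. Foxk2 was thus higher and Foxk1 lower in the P42 library, neither of them 2-fold. The log2 ratios were 0.58 (0.50 to 0.65) for Foxk2 and -0.64 (-0.77 to -0.51) for Foxk1. Within a library Foxk2 exceeded Foxk1 3.03-fold in P33 and 7.03-fold in P42, a change of that ratio by 1.21 on the log2 scale (1.07 to 1.36, conditional exact interval), and by 0.95 with the trend on GC content and exon length removed.

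The Foxn genes encode factors with a divergent winged helix, among them the checkpoint repressor Foxn3 and Foxn1, the master factor of the thymic epithelium. Foxn2 had the most counts of the family, 4576 in P33 and 4161 in P42. Its level was 14.8 and 15.0 RPKM, which is 14.9 ± 0.156 (SD, n = 2). Foxn3 was much lower, at 1.23 and 0.951 RPKM, and Foxn4, a factor of retinal and spinal cord progenitors, stood at 1.79 and 2.42. Foxn1 had 2 and 1 counts. Foxn2 exceeded Foxn3 12.0-fold in P33 and 15.8-fold in P42, with both differing less than 2-fold between the libraries.

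Foxm1, the factor that activates genes of G2 and mitosis in dividing cells, had the same level in both libraries within counting error. It stood at 10.31 RPKM in P33 and 10.04 in P42, from 2501 and 2181 counts, with a log2 ratio of -0.04 (-0.12 to 0.04). All 17 listed Foxm1 target genes of G2 and mitosis were detected, and none was higher or lower by the rule given below, beside 14.6% of all genes. Among these targets 12 had ratios above 0 and 5 below. The targets with the highest mean CPM, a rank that depends on transcript length as well, were Top2a, at 1200 CPM in P33 and 1715 in P42, and Bub1b, at 429 and 461. All 11 genes of the Foxm1 partners and activators were detected, with the highest mean CPM for Rbbp4 at 793 ± 217 CPM and Mybl2 at 405 ± 92.3 CPM (SD, n = 2).

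Among the Foxj genes, Foxj3 stood at 5.45 RPKM in P33 and 7.10 in P42 and Foxj2 at 1.56 and 1.62. Foxj1, the master factor of motile cilia, had 64 counts in P33 and 18 in P42. Of the 18 motile cilium genes with a row in the files, 10 were detected. Highest in mean CPM were Rfx2, at 35.9 and 29.0 CPM, and the central pair gene Hydin, whose transcript is long, at 24.9 and 9.51 CPM. Per length Tekt1, named after its values were seen, stood at 5.16 and 5.68 RPKM, Rfx2 at 4.92 and 3.97 and Hydin at 1.38 and 0.527. Mcidas, which starts the multiciliated cell program upstream of Foxj1, had 0 counts in both libraries, and Ccno 25 and 14.

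The Foxp genes encode zinc finger and leucine zipper forkhead factors that pair with each other. Foxp4 stood at 9.90 RPKM in P33 and 4.94 in P42, and Foxp1 at 3.36 and 3.86. Foxp2, a factor of neurons and lung, had 1 count in each library, and Foxp3, the factor of regulatory T cells, 3 and 0. The ratio of Foxp1 to Foxp4 went from 0.339 in P33 to 0.782 in P42, a change of 1.21 (1.06 to 1.35) on the log2 scale. With the trend on GC content and exon length removed the change was 0.55, and these 2 genes lie far apart in GC content, 44.9% for Foxp1 and 63.4% for Foxp4. Foxp1 is also known for an exon switch in stem cells, which counts per gene cannot show.

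Foxh1, on chromosome 15 (76668225 to 76669948, mm10), was the most abundant forkhead gene per length in P33 and the sixth in P42. It had 1375 counts in P33 and 477 in P42, or 23.9 and 9.25 RPKM. In P33 it exceeded 83.2% of the detected protein-coding genes and in P42 60.3%. Foxd3, on chromosome 4 (99656299 to 99658622), is a factor of the epiblast and of naive to formative conversion, encoded by a single exon. It stood at 5.59 RPKM in P33 and 4.27 in P42, a log2 ratio of -0.39 (-0.58 to -0.20). Beside it on the opposite strand the noncoding gene Gm12688 had 130 and 92 counts. Of the members with low counts, Foxr1 had 133 and 75, Foxr2 134 and 168, and Foxa3, an endoderm factor, 71 and 67.

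**Figure D2:**
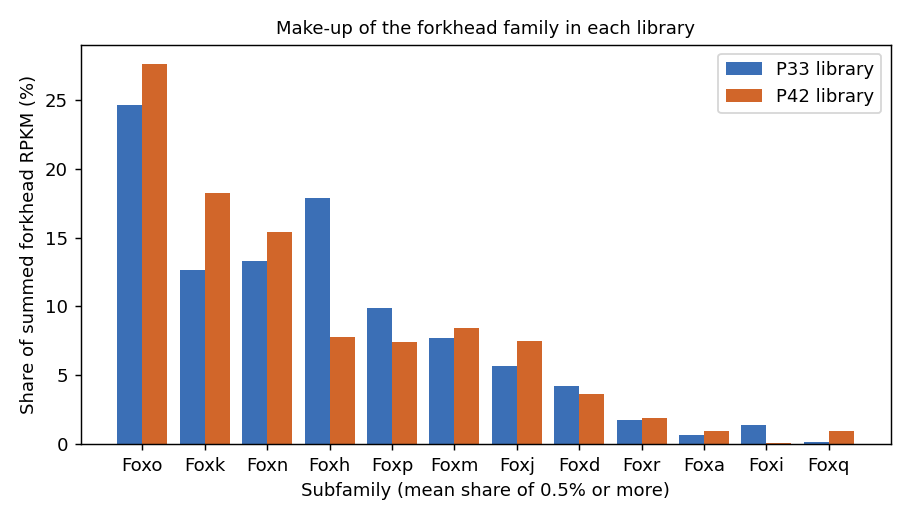
Share of the summed forkhead RPKM taken by each subfamily, in percent, for the P33 library (blue) and the P42 library (orange). Foxo genes took the largest share in both libraries, while the share of Foxh1 was 17.8% in P33 and 7.76% in P42.

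In 19 members both libraries had fewer than 10 counts. Of these, 8 had 0 counts in both (Foxs1, Foxd2, Foxe3, Foxb1, Foxb2, Foxl2, Foxi1 and Foxd4), which by a limit of 3 counts allows a level of up to 0.0712 CPM (P33) or 0.0794 CPM (P42). The exact 95% interval of a count of 0 reaches 0.0875 and 0.0977 CPM. The rest were Foxa1, Foxc1, Foxc2, Foxd1, Foxe1, Foxf1, Foxi2, Foxl1, Foxn1, Foxp2 and Foxp3, none with more than 7 counts. In all, 13 of 44 members had at most 1 count in each library, beside 24.8% of protein-coding genes. Foxa1, a pioneer factor of endoderm, had 4 and 3 counts.

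Some of these members lie next to each other on a chromosome. On chromosome 8 Foxf1, Foxc2 and Foxl1, spaced by 28026 and 9044 bases, had at most 5 counts each, and the noncoding gene Fendrr beside Foxf1 had 0 and 1. On chromosome 4 Foxd2 and Foxe3, 16.3 kb apart, had none. On chromosome 13 the genes Foxq1, Foxf2 and Foxc1 are spaced by 64.8 kb and 175 kb. There Foxq1 had 40 counts in P33 and 212 in P42, Foxf2 1 and 12, and Foxc1 1 and 2. A gene annotated on the opposite strand of Foxq1, A530084C06Rik, had 1 and 2 counts.

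The second question was which members differ between the libraries. The terms higher and lower are used of P42 for genes that averaged 1 CPM or more, with a ratio of 2-fold or more whose counting interval excluded equality. Of the 21 forkhead genes averaging 1 CPM or more, 4 were counted (19.0%), beside 14.6% of all 13737 genes at that level. In P42, 1 member was higher, beside 5.07% of all genes, and 3 were lower, beside 9.54%. The share of the family was thus near that of all genes. Its median log2 ratio was 0.02, with 11 members above 0 and 10 below, beside a median of 0.04 over all genes. Of these 21, Foxi3 and Foxq1 passed the minimum through 1 library alone, where each was high.

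Foxi3, a factor of the ear and of teeth and hair placodes, differed most. It had 101 counts in P33 and 4 in P42, or 2.396 and 0.106 CPM. The log2 ratio was -4.34 (-6.40 to -3.10). The 4 other genes within 200 kb on chromosome 6 with 10 or more counts, a window chosen after these values were seen, had ratios from -0.37 to -0.07. They included Eif2ak3, the endoplasmic reticulum stress kinase, at -0.07. Foxi1 and Foxi2, the other members of the subfamily, had at most 1 count.

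Foxq1, a factor of epithelia and hair, was the member counted as higher. It stood at 0.949 CPM in P33 and 5.61 in P42, a log2 ratio of 2.55 (2.07 to 3.09). Its neighbour Foxf2, a factor of gut mesenchyme and brain pericytes, had a ratio of 3.22 (0.99 to 9.16) from 1 and 12 counts, under the minimum. Foxa2, the pioneer factor of endoderm and floor plate, had 6 counts in P33 and 24 in P42, also under the minimum, with a ratio of 2.07 (0.83 to 3.74). The noncoding gene 9030622O22Rik beside Foxa2 had 0 and 5. Of the primitive endoderm markers 7 of 14 were higher in P42 too, beside 5.07% of all genes, and none was lower. Their summed level was 750 CPM in P33 and 1014 in P42, and none was at 0. Sox17, for example, had 24 and 94 counts and passed the minimum through P42 alone. Others of the list were nearly level, such as Lamb1 at 0.005 and Lrp2 at 0.07. The 10 markers of definitive endoderm and mesendoderm summed to 14.5 and 19.9 CPM, with Cer1 at 0 in both. Only 3 of them averaged 1 CPM or more, and 1 of these, Cxcr4, was higher. Cxcr4 passed the minimum through P42 alone. The part of these cell types in the forkhead values was not tested, and more cells of a type and more RNA per cell cannot be told apart in bulk RNA.

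Foxh1 was lower in P42, with a log2 ratio of -1.37 (-1.52 to -1.22). It lies on chromosome 15, where the median ratio of 539 genes was -0.61, the lowest of the autosomes. Of the 19 other genes within 200 kb that had 10 or more counts, 18 lay below 0, 10 were counted lower and their median was -1.02. Of its neighbours on the opposite strand, Ppp1r16a stood at -1.45, while Kifc2, the nearest gene and the one above 0, stood at 0.74 (0.47 to 1.02) from 185 and 277 counts. With the chromosome median subtracted the Foxh1 ratio was -0.76, and with the trend on GC content and exon length removed it was -0.95, both under 2-fold.

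**Figure D3:**
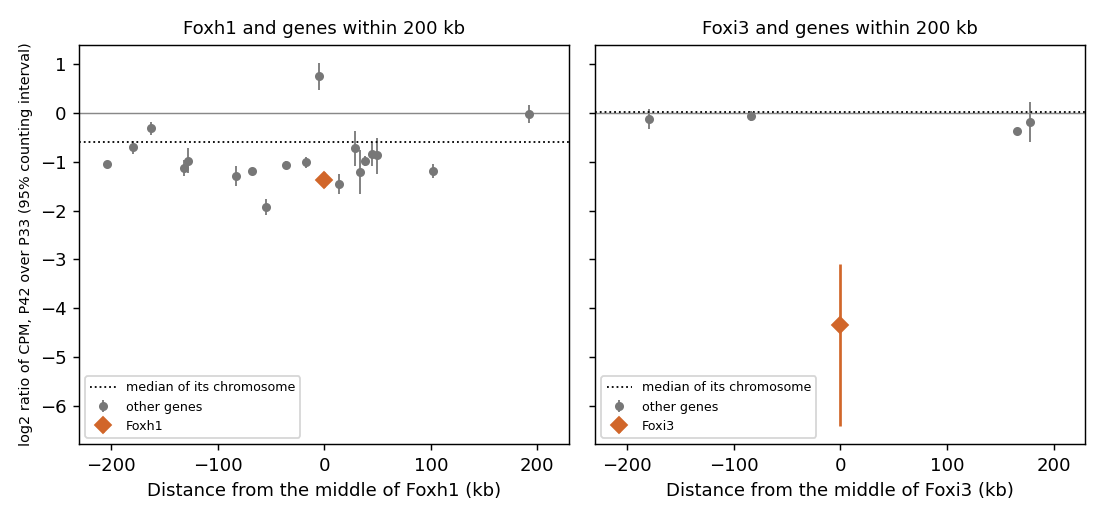
Log2 ratio of P42 over P33 for Foxh1 (left) and Foxi3 (right), orange, and for other genes with 10 or more counts within 200 kb, grey, against distance in kb; bars are 95% counting intervals and the dotted line is the median of the chromosome. Nearly all genes around Foxh1 lie below 0, while the 4 genes around Foxi3 lie between -0.37 and -0.07.

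Foxp4 lay at the 2-fold threshold, with a log2 ratio of -1.002 (-1.12 to -0.89) from 2055 and 919 counts. It was at -0.29 with the trend on GC content and exon length removed and at -0.90 with the median of chromosome 17 subtracted. Foxj1, at a mean of 0.997 CPM, lay just under the minimum, with a ratio of -1.64 (-2.51 to -0.90).

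**Figure D4:**
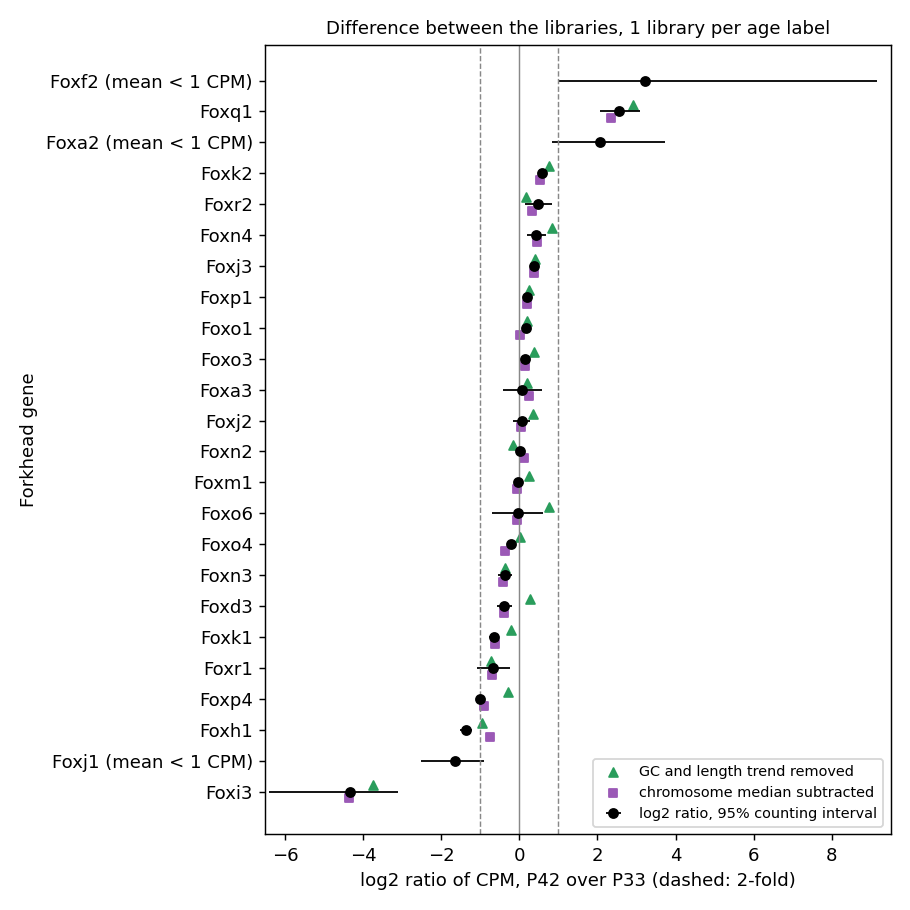
Log2 ratio of P42 over P33 for the forkhead genes with 10 or more counts in 1 library, apart from 1 that is not shown (black, with 95% counting intervals), with the trend on GC content and exon length removed (green) and with the chromosome median subtracted (purple) for genes averaging 1 CPM or more. Dashed lines mark 2-fold; Foxi3 and Foxq1 stay beyond them under both corrections, while Foxh1 and Foxp4 come to lie inside.

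The difference between the libraries varied with GC content, and forkhead transcripts are rich in G and C. Across all genes, ratio and GC content (of the longest transcript) had a rank correlation, Spearman's rho, of -0.39. Over the 21 forkhead genes it was -0.45, a description over genes that share these 2 libraries. Of 10 equal bins of genes by GC content, the highest had a median of -0.48, and it begins at 57.6%. Foxh1 (59.1%), Foxi3 (63.1%), Foxp4 (63.4%), Foxd3 (65.1%), Foxn4 (58.3%) and Foxo6 (69.1%) are in it. With the trend removed Foxd3 went from -0.39 to 0.27, Foxo6 from -0.05 to 0.76, Foxm1 from -0.04 to 0.25, Foxo4 from -0.22 to 0.01 and Foxn2 from 0.02 to -0.16, each with a change of sign. The median of the 21 genes went from 0.02 to 0.20.

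**Figure D5:**
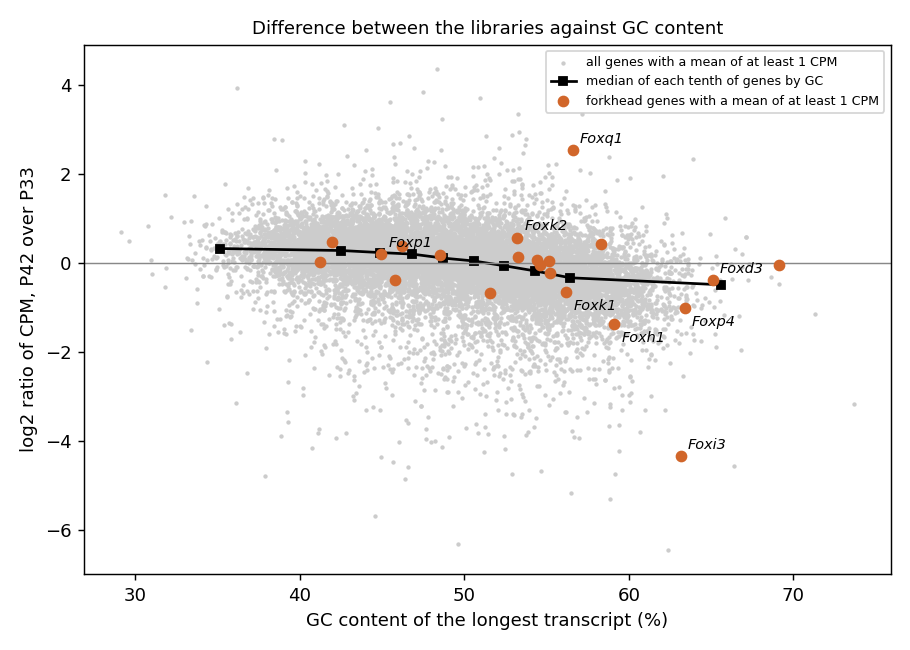
Log2 ratio of P42 over P33 against the GC content of the longest transcript in percent, for every gene that averaged 1 CPM or more (grey) and the 21 forkhead genes among them (orange). Black squares are medians of 10 equal bins of the genes, which run from 0.33 at the lowest GC content to -0.48 at the highest.

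Of all genes averaging 1 CPM or more, 5.07% were higher in P42 and 9.54% lower, and each list below is read beside these shares. Around the FoxO factors, all 21 genes of their control by PI3K and Akt were detected, 2 of them higher in P42 and none lower. The median was 0.06. The kinase gene Sgk1, whose product phosphorylates FoxO factors as Akt does, stood at 308 CPM in P33 and 714 in P42, a ratio of 1.21 (1.18 to 1.24). Akt1 went the other way, at -0.90 (-1.04 to -0.76), under 2-fold. With the trend on GC content and exon length removed Akt1 was at -0.38. Of the 21 genes, 13 lay above 0 and 8 below. Highest in mean CPM were the 14-3-3 gene Ywhae, at 1167 and 1619 CPM, and the nuclear export gene Xpo1, at 852 and 1206. Of 22 FoxO target genes, all detected, 2 were higher and 4 lower, with a median of 0.07. Cdkn1b, which encodes the cell cycle inhibitor p27, stood at 26.3 and 65.8 CPM, a ratio of 1.32, and Sesn1 had a ratio of 1.32 as well. Sesn3 was lower at -1.14, as were Bbc3 at -1.60, Irs2 at -1.42 and Fbxo32, on chromosome 15, at -1.17. With the trend on GC content and exon length removed Bbc3 was at -0.95 and Irs2 at -0.98, both under 2-fold, and Fbxo32 at -1.27. With the chromosome median subtracted Fbxo32 was at -0.56, under 2-fold, while Bbc3 was at -1.43 and Irs2 at -1.42. Targets that respond to FoxO factors in other cells thus went both ways. Txnip and Sod2, the targets with the highest mean CPM, had ratios of 0.53 and 0.11.

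Around Foxh1, the 13 Nodal and Smad partner genes were all detected, with 2 lower in P42, none higher and a median of 0.23. The ligand gene Nodal stood at 31.2 CPM in P33 and 10.9 in P42, a ratio of -1.51 (-1.68 to -1.35), and the receptor gene Acvr2b at 6.29 and 2.60, a ratio of -1.27. The co-receptor gene Tdgf1, at 781 and 1272 CPM, and the corepressor gene Tgif1, at 217 and 321, had the highest mean CPM. The signal transducers Smad2 and Smad4 had ratios of 0.28 and 0.23. Of the 10 target genes of Foxh1 and Nodal, 4 were detected and 2 were higher. These were the Nodal antagonist genes Lefty2, at 25.7 and 97.3 CPM with a ratio of 1.92 (1.82 to 2.02), and Lefty1, at 1.25 (1.04 to 1.48). Foxh1 and Nodal were thus lower in the library in which the Lefty genes were higher. Both Lefty genes lie on chromosome 1, where the median ratio of 847 genes was 0.60, and with it subtracted Lefty1 was at 0.66 and Lefty2 at 1.32. Smad7, at 72.8 and 73.8 CPM, had a ratio of 0.02. Gsc, Cer1, Fgf8 and Lhx1 had at most 4 counts in each library.

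Of the other lists, the Foxk and Foxp cofactor genes were all 12 detected with none higher or lower and a median of 0.03, with the highest mean CPM for Sin3a at 373 ± 23.7 CPM and Hdac2 at 273 ± 28.3 CPM (SD, n = 2). Among 5 genes of the Foxn cofactors and checkpoint list Mcm6, a replicative helicase gene on chromosome 1, was higher at 1.06, or 0.46 with the chromosome median subtracted and 0.90 with the trend on GC content and exon length removed. The activator gene Lin9, a partner of Foxm1 on the same chromosome, was higher at 1.24. Lin9 was at 0.64 with the chromosome median subtracted and at 1.07 with the trend on GC content and exon length removed. Among 11 formative factors acting with Foxd3, 10 were detected and Dnmt3b, a DNA methyltransferase gene, was lower, at 387 CPM in P33 and 105 in P42. Of 13 cilium genes averaging 1 CPM or more, 3 were lower, Hydin at -1.39, Dnah5 at -2.32 and Dnah11 at -2.02, with a median of -0.31 for the list. The last 2 passed the minimum through P33 alone, and Dnah5 lies on chromosome 15. Of the 10 trophectoderm markers 6 averaged 1 CPM or more, and 3 of these were lower, Krt7, Krt8 and Ascl2, beside 9.54% of all genes. Krt7 and Ascl2 passed the minimum through P33 alone. Krt7 and Krt8 lie on chromosome 15. With the chromosome median subtracted Krt7 went from -2.60 to -1.99 and Krt8 from -1.57 to -0.96, the latter under 2-fold. The trophectoderm list summed to 93.9 and 65.7 CPM. Of the 10 neuroectoderm markers 6 averaged 1 CPM or more, and 1 of these, Neurod1, was lower. The neuroectoderm list, with Hes5 at 0 in both, summed to 83.0 and 80.2 CPM. The fibroblast list had no member higher or lower. Stem cell markers were higher for 2 of 10, Sox2 at 1.03 and Klf4 at 1.83, of which Sox2 was at 0.91 with the GC and length trend removed and 0.86 with the chromosome median subtracted.

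Detected members and the others were compared by features that the rule did not use. Of 14 members whose longest transcript has a single exon 1 was detected, Foxd3, while 18 of 30 with more exons were. Over all protein-coding genes these shares were 32.1% and 56.3%. Of 14 members with 5 or more exons 11 were detected, all but Foxn1, Foxp2 and Foxp3. The detected members had a median GC content of 54.4% and the others 57.7%, both above the 48.7% of all protein-coding genes. The RPKM of the 44 members had a Spearman rho of 0.58 with exon number and of -0.31 with GC content, as descriptions across genes.

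Promoter sequences from RefSeq (GRCm38.p6) matched 28 of the 44 members, and the 250 bases before the start were examined. They held a median of 16.5 CG dinucleotides, against 6 over 32851 promoters. The 13 detected members had a median of 20 and the 15 others, which include Foxi3, had 12. The promoter in the table lay 113508 bases from the GENCODE start for Foxn3, 6032 for Foxp3, 2657 for Foxj3 and 1728 for Foxp1. The forkhead core motif GTAAACA, on either strand, was in 1 of the 28, that of Foxa1, and in 3.17% of all promoters. The Foxh1 core TGTNNATT was in 2, those of Foxp1 and Foxp3, and in 10.9% of all. These are matches of letters in a short window and no measure of binding.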

How the data were processed

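Polyadenylated RNA was sequenced in 2 libraries of 1 group. The authors deposited raw read counts per Ensembl gene. The submitters' processing notes name mm10, featureCounts 1.4.5-p1 and STAR 2.4.2a. The sources used here do not give the annotation release, the strand setting or how multi-mapped reads were treated, so counts of overlapping or near-identical genes are uncertain. Per the labels the protocol was reverse-stranded.

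Of 43629 identifiers 42462 matched GENCODE M21 on GRCm38, the assembly of mm10. The rest had 0.173% (P33) and 0.184% (P42) of all counts. TMM factors from edgeR 4.0.16 were 1.05 and 0.952, so that 1 CPM was 42.2 counts in P33 and 37.8 in P42. Log2 ratios used a prior count of 0.5 and Clopper-Pearson intervals. The code of the rule for higher and lower was run on counts simulated with counting error alone. Such counts hold no variation between cultures, so they cannot show how the rule treats it. The trend on GC content and exon length was removed by lowess (span 0.3, statsmodels 0.14.6). Scaling by total counts would shift every log2 ratio by -0.14.

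Members with 10 or more counts in 1 library were named with values, with the 2 genes of highest mean CPM and all called genes of each list, apart from a few that are not reported here. Most other list genes named were chosen after their values were seen. The members and lists were chosen with earlier results of these data known.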

Additional observations from a re-analysis of the deposited data

How the results depend on the processing

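The counts of members higher (1) and lower (3) in P42 were the same with DESeq2 size factors and with a prior count of 2. With no CPM minimum 3 members were higher, Foxq1 with Foxa2 and Foxf2, and 4 lower, with Foxj1 added. At a minimum of 5 CPM 0 were higher and 2 lower, since Foxq1 and Foxi3 lie under it. At 1.5-fold 5 were lower, with Foxk1 and Foxr1 added. With the trend on GC content and exon length removed 1 was lower, Foxi3, and likewise 1, Foxi3, with the chromosome median subtracted. With total counts 4 were lower, with Foxj1 added, and of all genes counted 78.1% were lower in place of 65.3%. The median of the forkhead genes was -0.15 with total counts, where that of all genes was -0.10, and -0.01 with no minimum. In these settings 15.4% (total counts), 14.2% (no minimum), 10.2% (5 CPM), 11.9% (trend removed) and 12.9% (chromosome median) of all genes were counted, and 4807 of 13737 at 1.5-fold. The number of members detected was 20 at a minimum of 0.5 CPM, 15 at 5 CPM, 14 at 1 RPKM and 20 to 21 in a single library, and the summed level 704 to 713 CPM. With the longest transcript as length the median of the detected members was 6.43 RPKM in place of 4.93. Of 127 genes of the pathway lists averaging 1 CPM or more, 8 were higher and 10 lower, beside 5.07% and 9.54% of all genes. With the chromosome median subtracted, an alternative chosen after seeing the data, 4 were higher. No paired analysis was possible because there is 1 group with 1 library per age label. At 1 CPM, about 40 counts, ratios of low members such as Foxo6 have wide intervals (-0.70 to 0.60).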
